A study of Mus musculus with 2 samples.

Results

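The miR-15 and miR-16 seed family was read from 5 entries of an Agilent mouse microRNA (miRNA) array, mmu-miR-15a, mmu-miR-15b, mmu-miR-16, mmu-miR-195 and mmu-miR-497, written below without the species prefix. They were chosen by array name with passenger strands left out, among 567 mouse miRNAs in all. Together they had 10 probes and 100 spots on each array, of 1672 probes and 11340 spots for mouse miRNAs. The RNA came from microvesicles that 3T3-L1 adipocytes, a mouse preadipocyte line turned into fat cells by hormones, release into their culture medium. One group was vesicles from medium conditioned over 48 h from day 8 to day 10, and the other was vesicles from day 2 to day 4. In both, the cells grew in high-glucose medium with 10% FCS and had received the same 3 inducers, namely dexamethasone at 0.25 µM, 3-isobutyl-1-methylxanthine at 0.5 mM and insulin at 10 µg/ml. Vesicles of uninduced cells were not analysed here, and the medium held serum, whose part in the signals was not tested. Fewer vesicles that carry a miRNA and less of it per vesicle cannot be told apart. With 1 array per window there was no test, and window, RNA preparation and array cannot be told apart. Each standard error (SE) below covers the spread between spots of an array only, and the number of arrays limits how precise any difference is.

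miRNAs of this family share their seed, the stretch near the 5′ end that pairs with target messenger RNAs, and so share most of their predicted targets. They are known as brakes on the cell cycle, repressing cyclins and cyclin-dependent kinases of the G1 phase and the survival factor Bcl2, and the miR-15a and miR-16 locus is often lost in chronic lymphocytic leukaemia. In 3T3-L1 cells, hormonal induction is followed by a short burst of cell division before the cells leave the cycle and fill with lipid.

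The mature sequences, 5′ to 3′ as RefSeq gives them for GRCm38.p6, are shown because the members differ outside the seed only. Capitals mark the seed, bases 2 to 8. The last 2 entries are relatives outside the family rule.
miR-15a: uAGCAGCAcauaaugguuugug
miR-15b: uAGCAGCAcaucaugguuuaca
miR-16: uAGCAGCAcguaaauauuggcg
miR-195: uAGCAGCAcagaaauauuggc
miR-497: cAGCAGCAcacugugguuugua
miR-322: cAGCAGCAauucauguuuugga
miR-503: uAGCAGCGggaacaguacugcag

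All 5 members had the seed AGCAGCA, as did miR-322, whereas miR-503 differed in the last seed base. The RefSeq names of the members are miR-15a-5p, miR-15b-5p, miR-16-5p, miR-195a-5p and miR-497a-5p. Of 1679 mature mouse miRNAs in the RefSeq table, 10 carried this seed. miR-15a and miR-15b were identical at 18 of 22 bases and differed by A12C, G20A, U21C and G22A, with the miR-15a base first and positions counted from the 5′ end. miR-16 and miR-195 were identical at 19 of 21 bases and differed by G10A and U11G, with the miR-16 base first. miR-16 and miR-497 were the least alike of the 5 members, at 11 of 22 bases.

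The members are encoded at 3 loci. On chromosome 14, miR-15a (chr14:61632075-61632096, minus strand) lies beside a copy of miR-16 (chr14:61631936-61631957, minus strand) within the long noncoding RNA gene Dleu2. On chromosome 3, miR-15b (chr3:69009775-69009796, plus strand) lies beside the other copy of miR-16 (chr3:69009918-69009939, plus strand) within Smc4, which encodes a subunit of the condensin complex that compacts chromosomes. Both miR-16 genes give the same mature sequence, so the array cannot tell them apart. On chromosome 11, miR-497 (chr11:70234730-70234751, plus strand) and miR-195 (chr11:70235062-70235082, plus strand) lie within no other gene of the RefSeq table. These positions are in GRCm38.p6, and the sources used here name no build for the positions in the array files.

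Each member had a pair of probes, whose spans in the files were taken to start at the 3′ end of the mature miRNA. This was inferred from distances between neighbours. The span starts of miR-15a and miR-16 lay 139 bases apart in the files, as their 3′ ends do in RefSeq. Both are 22 bases long, so their 5′ ends lie equally far apart and this distance cannot show which end it is. For miR-195 and miR-497, of 21 and 22 bases, both distances were 331 bases. Their unequal lengths put their 5′ ends at another distance. The spans were 21 and 22 bases for miR-15a, 17 and 18 for miR-16, 18 and 19 for miR-195, and 19 and 20 for miR-497. For miR-15b the span of 1 probe was 20 bases and the other probe was listed as unmapped. Where both spans were given, the probe with the longer span gave the brighter spots on both arrays. This was usual for the array, since the longer of 2 probes was the brighter one for 95.8% of 120 miRNAs at day 8-10 and 98.2% of 114 at day 2-4. For the differences below, each probe is therefore set against itself between windows, and the levels of different probes are not read as amounts.

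Detection of a probe required that more than 0.5 of its spots be flagged as well above background, and detection of a miRNA required 1 such probe. All 5 members were detected in day 8-10 vesicles, against 4 in day 2-4 vesicles, where miR-195 was not. This difference depended on the rule: with at least 1 spot well above background required, 5 were detected in both windows, and with every probe required, 3 were in both. Among all mouse miRNAs the detected share was 29.3% at day 8-10 and 27.5% at day 2-4. The share detected at day 8-10 only, as miR-195 was, came to 3.7%, that detected on both arrays to 25.6%, at day 2-4 only to 1.94% and on neither to 68.8%. For miR-15a, miR-15b and miR-16 both probes were detected on both arrays, whereas for miR-195 and miR-497 the shorter probe had no spot well above background on either array. No mouse spot was saturated on either array.

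The members differed in direction, as did the 145 miRNAs detected on both arrays, of which 62.8% were higher and 37.2% lower at day 8-10. miR-15a gave higher signals in day 8-10 vesicles than in day 2-4 vesicles, miR-15b gave lower ones, and miR-16, which shares a locus with each of them, lay near the median of the array. miR-497 was dim and higher at day 8-10. miR-195 was dim too, and its probe was in use through its day 8-10 detection alone, so its direction is no separate result. Processed intensities below are in array units, after the software's background subtraction and before any scaling between arrays, over 10 spots per probe except where outliers were left out.

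miR-15a is the member paired with miR-16 in Dleu2. On its 22-base probe the spots had a lowest, median and highest intensity of 72.4, 79.9 and 86.6 in day 8-10 vesicles, against 41.8, 45.0 and 48.1 in day 2-4 vesicles, where 1 of 10 spots was left out as an outlier. On its 21-base probe they were 63.2, 67.4 and 73.5 at day 8-10, against 35.4, 40.7 and 42.9 at day 2-4. On neither probe did the spots of the windows overlap, and both probes were higher at day 8-10.

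miR-15b is the member paired with miR-16 in Smc4. On its 20-base probe the spots had a lowest, median and highest intensity of 59.2, 66.1 and 69.6 in day 8-10 vesicles, against 97.0, 105 and 113 in day 2-4 vesicles. On the unmapped probe they were 20.9, 22.3 and 23.7 at day 8-10, where 3 of 10 spots were left out as outliers, against 37.1, 40.4 and 43.7 at day 2-4. Here too the spots of the windows did not overlap, but both probes were lower at day 8-10. Among the 279 probes detected on both arrays, the unscaled spots did not overlap for 64.5%, with 31.5% higher at day 8-10 and 33.0% lower, so many probes outside the family shared this lack of overlap. After scaling of the arrays, described below, the shares were 64.2% in all, 37.6% higher and 26.5% lower.

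miR-16 is the member with a gene at each of those loci. On its 18-base probe the spots had a lowest, median and highest intensity of 164, 169 and 175 in day 8-10 vesicles, against 166, 173 and 181 in day 2-4 vesicles. On its 17-base probe they were 40.1, 44.8 and 48.2 at day 8-10, against 38.5, 43.4 and 45.6 at day 2-4. The unscaled spots of the windows overlapped on both probes, though those of the longer probe no longer did after scaling, and the median was lower at day 8-10 on the longer probe and higher on the shorter one.

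miR-497 and miR-195 are encoded side by side and are known in mouse to help keep muscle stem cells out of the cell cycle. On the longer miR-497 probe the spots had a lowest, median and highest intensity of 6.78, 9.70 and 12.6 in day 8-10 vesicles, against 3.76, 5.33 and 6.63 in day 2-4 vesicles. On the longer miR-195 probe they were 5.57, 6.56 and 7.50 at day 8-10, against 2.75, 3.61 and 5.52 at day 2-4. On these longer probes the spots of the windows did not overlap, with day 8-10 higher. For miR-195 this direction is no separate result, since its probe was in use through its day 8-10 detection alone. For miR-195, 1 of 10 spots at day 8-10 was left out as an outlier. The gaps were small, from 6.63 to 6.78 for miR-497 and from 5.52 to 5.57 for miR-195. On the shorter probes the spots overlapped. Of the 279 probes detected on both arrays, a set without this miR-195 probe, 64.5% had unscaled spots that did not overlap.

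These dim signals lay close to the detection limit. All 10 miR-497 spots were well above background at day 8-10 and 6 of 10 at day 2-4, while for miR-195 all 9 spots in use were at day 8-10 and 1 of 10 at day 2-4. Negative control spots not marked as outliers reached 2.83 at day 8-10 and 2.70 at day 2-4, below the longer-probe medians of both miRNAs on both arrays. With outlier spots kept, the highest negative control was at 11.2 at day 8-10 and 9.87 at day 2-4. The shorter probes stayed at medians of 1.64 at day 8-10 and 1.07 at day 2-4 for miR-497, and of 1.30 and 0.876 in the same order for miR-195.

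**Figure D1:**
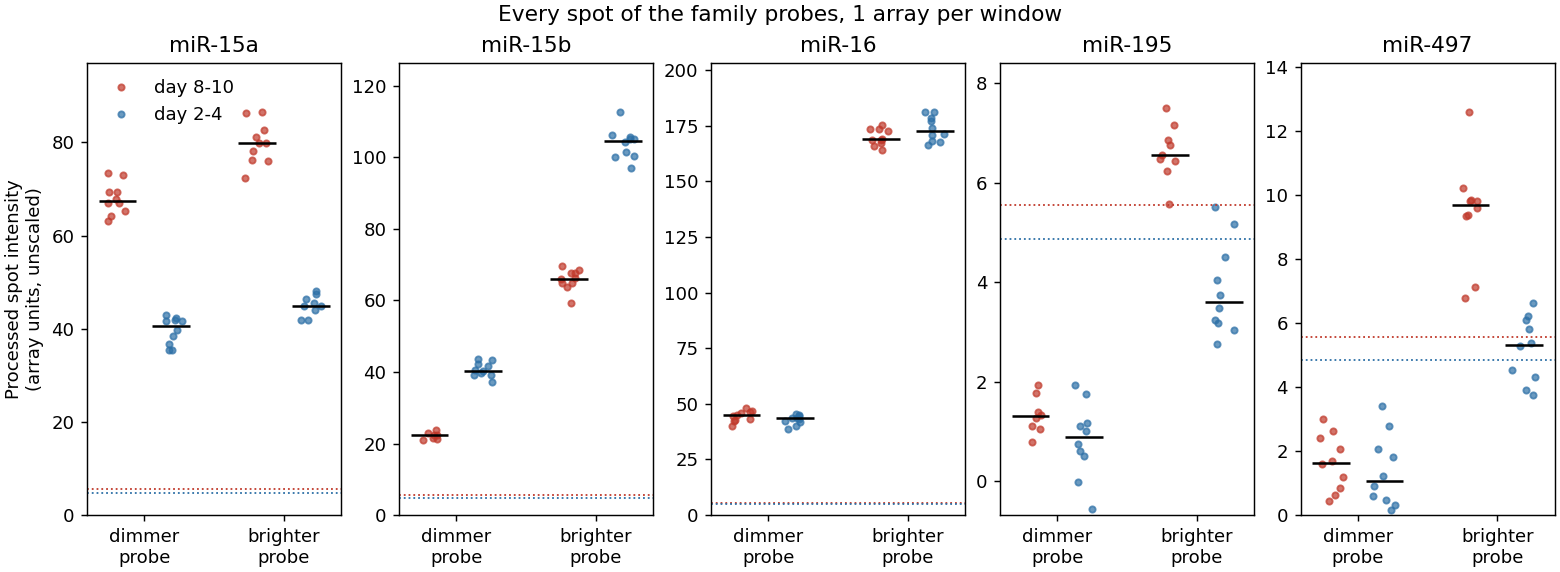
Processed intensity of every spot in use for the 5 members (unscaled array units, linear axes that differ between panels), with the dimmer and the brighter probe of each member, day 8-10 in red and left of day 2-4 in blue; black bars are medians over spots and dotted lines the lowest detected probe of each array. Both miR-15a probes are higher at day 8-10, both miR-15b probes are lower, and the miR-16 spots of the windows overlap.

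To compare windows, spot intensities were divided by the 75th percentile of the 279 probes detected on both arrays. The dimmest detected probe of an array served as the floor for its spots, and log2 values were averaged over spots and then over detected probes. On this scale miR-15a had a log2 signal of -0.37 in day 8-10 vesicles and -1.36 in day 2-4 vesicles. The day 8-10 signal was thus 1.99-fold the higher, with a log2 difference of 0.99 and a spot SE of 0.027. Its longer probe gave 1.01 and its shorter probe 0.97. miR-15b had a log2 signal of -1.32 at day 8-10 and -0.74 at day 2-4. Its day 8-10 signal was 0.669 times that at day 2-4, with a log2 difference of -0.58 and a spot SE of 0.022, and its probes were at -0.47 and -0.69.

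For miR-16 the log2 signal was -0.13 at day 8-10 and -0.33 at day 2-4, a log2 difference of 0.20 (spot SE 0.020), and its probes gave 0.16 and 0.24. This sign was not stable: it turned negative under 3 other settings, among them the 75th percentile taken over all mouse probes (-0.31). miR-497, on its longer probe alone, had a log2 signal of -3.35 at day 8-10 and -4.31 at day 2-4, and was 1.95-fold higher (log2 difference 0.96, spot SE 0.097). Its lowest day 2-4 spots, down to 3.76, lay below the floor of 4.86 and were raised to it. Over 15 alternatives its log2 difference ran from 0.21 to 1.05, the highest with the median over spots. The lowest, 0.21, came under the normexp model of background. That setting adds an offset of 50 to each spot, which compresses differences between dim spots.

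miR-195, detected at day 8-10 only, had log2 signals of -3.85 at day 8-10 and, with most spots at the floor, -4.45 at day 2-4. In the main setting this gave a bound of 1.52-fold higher at day 8-10, a log2 difference of 0.60. The probe was in use through its day 8-10 detection alone, so this direction is no separate result. The scaled floors themselves differed, so that a probe at the floor on both arrays reads 0.38 on the log2 scale. The bound did not hold in every setting. The miR-195 log2 difference was 0.41 with no scaling, 0.17 with normexp and 0.092 with the 75th percentile over all mouse probes. With no floor it was 0.96.

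No member passed a 2-fold difference in the main setting. Of the 4 members detected on both arrays, 0 were called at 2-fold, while 23.4% of the 145 miRNAs detected on both arrays were, 15.9% higher and 7.59% lower at day 8-10. Ordered from the highest difference, miR-15a stood at place 24 of 145, miR-497 at 26, miR-16 at 76 and miR-15b at 121. miR-15a and miR-497, with 1 other miRNA between them, differed by less than the spot SE of miR-497, and the order of places is a description of these 2 arrays. At 1.5-fold, miR-15a and miR-497 were called as higher and none as lower, against 46.2% of all 145 in either direction, 29.7% higher and 16.6% lower. miR-15b lay just short of this cutoff, at 1.495-fold lower, so the count of lower members depends on it. By any amount, 3 of the 4 were higher and miR-15b was lower, against 62.8% higher and 37.2% lower of all 145. The median over the 4 members was 0.58, against 0.20 over all 145 miRNAs.

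Because the choice of scaling moved the median of the 145 miRNAs between -0.30 and 0.20, the members were also read against that median. Relative to it, miR-15a was at 0.79, miR-497 at 0.76, miR-16 at -0.0060 and miR-15b at -0.79. Over 12 other settings, normexp left aside, miR-15a stayed between 0.66 and 0.79, miR-15b between -0.84 and -0.75, miR-16 between -0.048 and 0.15, and miR-497 between 0.42 and 0.85. With normexp these values were 0.39 for miR-15a, -0.36 for miR-15b, 0.0045 for miR-16 and 0.087 for miR-497.

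**Figure D2:**
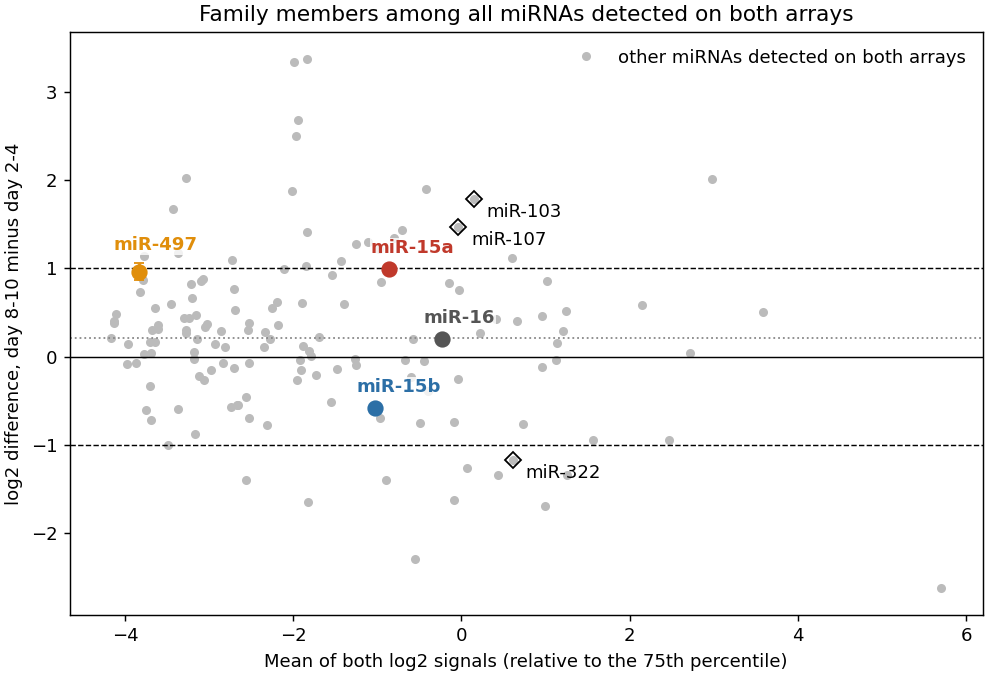
Difference between the windows (vertical axis, log2, day 8-10 minus day 2-4) against the mean of both log2 signals (horizontal axis) for the 145 miRNAs detected on both arrays; coloured points are family members with spot SE, diamonds are relatives, dashed lines mark 2-fold and the dotted line the median of 0.20. miR-15a and miR-497 lie at the upper 2-fold line, miR-16 on the median and miR-15b below 0.

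A contrast between 2 members on the same arrays does not depend on how the arrays are scaled by a constant. The log2 difference of miR-15a exceeded that of miR-15b by 1.57 (spot SE 0.035), which is a 2.97-fold unequal change between members that differ at 4 of 22 bases. It lay between 1.44 and 1.70 over the 4 pairings of their probes, and between 0.75, with normexp, and 1.57 over 13 other settings. miR-15a exceeded miR-16, its neighbour in Dleu2, by 0.79 (spot SE 0.033, 0.38 with normexp). miR-16 exceeded miR-15b, its neighbour in Smc4, by 0.78 (spot SE 0.029, 0.37 with normexp). The sign of each contrast held under all 13 settings. These contrasts were chosen after their values were seen, and whether probes of near-identical members share signal was not tested. The log2 differences of all 145 miRNAs ran from -2.62 to 3.37, and how many other pairs lay as far apart was not counted.

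**Figure D3:**
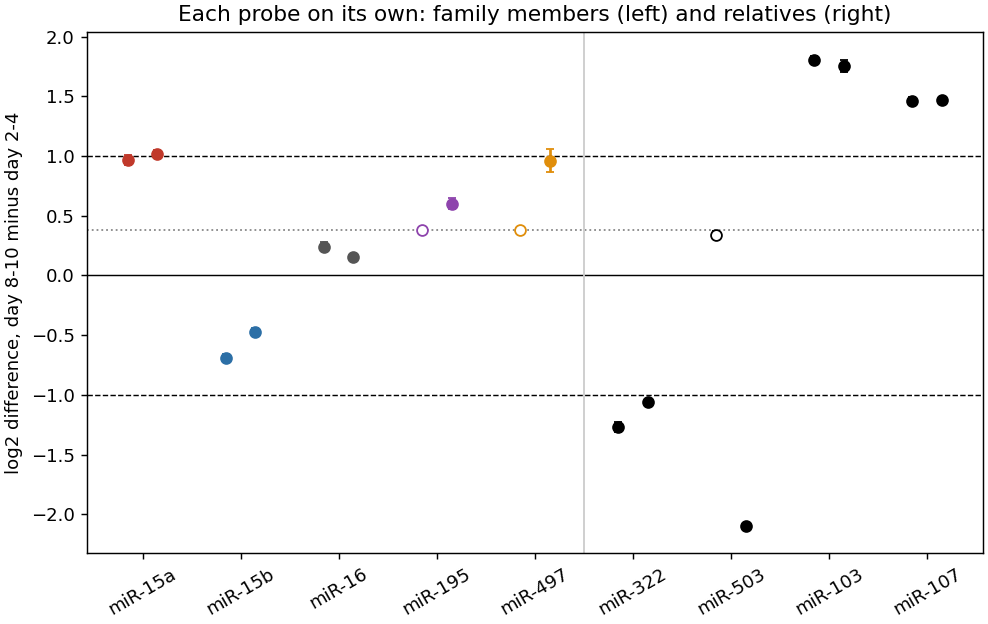
Difference between the windows for each probe on its own (log2, day 8-10 minus day 2-4, with spot SE), family members on the left and relatives on the right, with the probe dimmer at day 2-4 drawn first; open circles are probes detected on neither array, the dotted line is the 0.38 that a probe at the floor on both arrays reads, and dashed lines mark 2-fold. Both probes of miR-15a lie near 1, those of miR-15b at -0.69 and -0.47, and those of miR-16 at 0.24 and 0.16.

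The relatives with the same or nearly the same seed were lower at day 8-10. miR-322, the rodent counterpart of human miR-424, had longer-probe spots with a lowest, median and highest intensity of 124, 127 and 133 in day 8-10 vesicles, against 282, 307 and 316 in day 2-4 vesicles. Both its probes were lower at day 8-10, and together they gave a 2.24-fold lower signal (log2 difference -1.17, spot SE 0.024). miR-503, its neighbour on chromosome X, had no spot well above background at day 8-10, so only a bound can be given. In the main setting this was at least 4.28-fold lower at day 8-10 on its longer probe. That probe had a median intensity of 3.85 at day 8-10 and 27.0 at day 2-4.

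miR-103 and miR-107 carry the same 7 bases at positions 1 to 7, 1 base before the family seed, in their RefSeq 3p arms. They are known to lie in introns of pantothenate kinase genes. The log2 difference was 1.78 for miR-103 (spot SE 0.030), which is 3.44-fold higher at day 8-10. For miR-107 it was 1.47 (spot SE 0.018), which is 2.76-fold higher. Among the members, miR-322, miR-503, miR-103 and miR-107, the differences thus ran from at least 4.28-fold lower to 3.44-fold higher at day 8-10.

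The passenger strands miR-15a*, miR-15b* and miR-16* had 4 probes each and no detected probe in either window. Their probe means lay between -0.13 and 2.55 at day 8-10 and between -1.12 and 2.85 at day 2-4. The array had no entry named miR-195* or miR-497*.

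Other miRNAs that act on the cell cycle gave the setting for these values. Of 22 listed miRNAs known to restrain the G1 phase, 18 were detected on both arrays. Past 2-fold, 4 of the 18 were higher at day 8-10 and 0 were lower, against 15.9% higher and 7.59% lower of all 145 miRNAs. Their median log2 difference was 0.64, against 0.20 over all 145. The count is near the share over all miRNAs and is not a result about the list. The largest differences were those of miR-29b (2.50), miR-29c (1.87) and miR-98 (1.17). Of 15 listed miRNAs known to promote proliferation, 9 were detected on both arrays and 0 of these passed 2-fold, against 23.4% of all 145 miRNAs in either direction. Their median log2 difference of 0.16 lay close to the 0.20 over all 145. miR-106b (0.92), miR-19b (0.62) and miR-221 (-0.57) differed most among them.

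Markers of the source were read the same way. Like the cell cycle lists above, these lists were chosen with earlier results of these data known, so their counts are a description only. All 5 listed miRNAs of adipocyte differentiation were detected in both windows. Of these, 4 passed 2-fold as higher at day 8-10, against 15.9% of all 145 miRNAs. They include miR-103 and miR-107, whose values are given above. The 3 mesenchymal miRNAs on the array had log2 differences from -1.63 to -0.95. None of the 4 muscle miRNAs was detected, nor the 1 liver miRNA. Of 7 blood and serum miRNAs, 4 were detected at day 8-10 and 3 at day 2-4, against 29.3% and 27.5% of all mouse miRNAs. The 3 detected on both arrays had log2 differences from -0.22 to 0.046. Of these, miR-451 was bright, with log2 signals of 2.73 at day 8-10 and 2.69 at day 2-4. The signals were dim for miR-486 (-3.16 and -3.20 in the same order) and miR-223 (-3.23 and -3.02). Cells and serum can both carry the family, and the part of either in the signals was not tested.

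The miRNAs nearest to each member in both log2 signals were taken as its likest, over 2 arrays only, so nearness reflects probe brightness as well as difference. For miR-15a these were miR-30a and miR-705, at distances of 0.17 and 0.23 on the log2 scale. For miR-15b they were miR-125a-3p (0.12) and miR-30d (0.46), for miR-16 miR-26a (0.35) and miR-125b-5p (0.41), and for miR-497 miR-34b-5p (0.091) and miR-192 (0.15).

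As a sum over probes of unequal brightness, and so not as an amount, the detected family probes made up 0.771% of the summed signal of detected mouse probes at day 8-10 and 0.205% at day 2-4. Without miR-1224, whose probes had the highest mean log2 signal of the 145 miRNAs, these shares were 1.61% at day 8-10 and 1.53% at day 2-4. The scanner software's own gene signal, summed over probes, was 98.6 at day 8-10 and 56.0 at day 2-4 for miR-15a, 58.6 and 95.6 in the same order for miR-15b, and 143 in both windows for miR-16. By that software's flag all 5 members were detected in both windows, miR-195 with a gene signal of 5.29 at day 8-10 and 3.1004 at day 2-4.

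**Figure D4:**
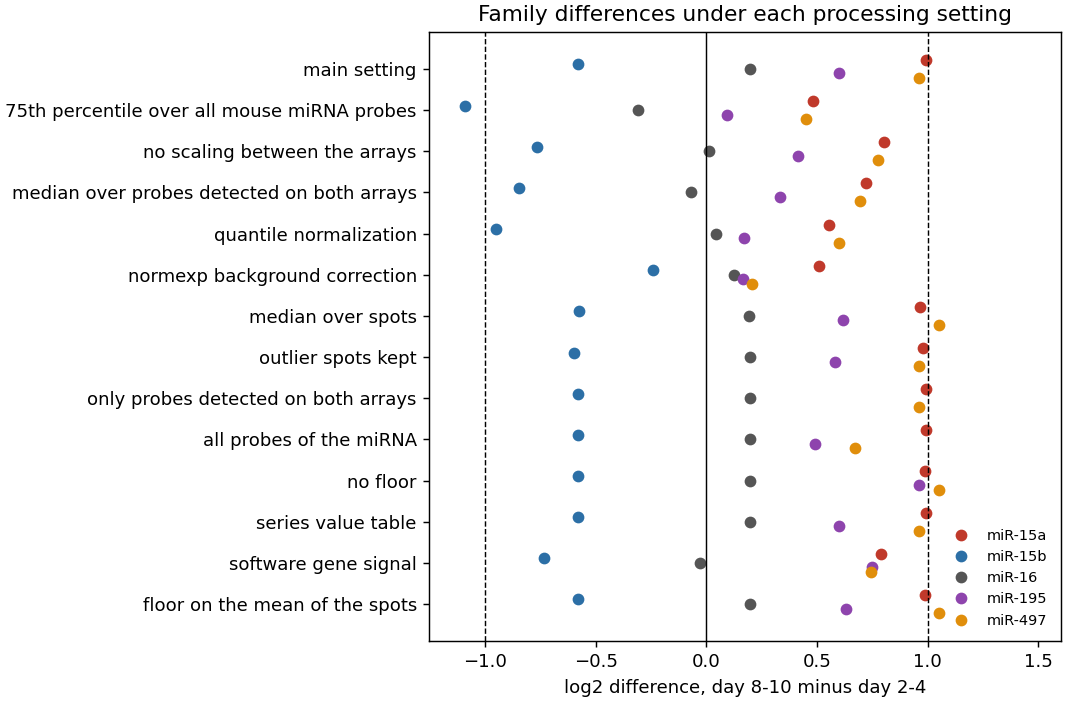
log2 difference (day 8-10 minus day 2-4, horizontal axis) of the 5 members under the main setting and 13 others (vertical axis), with dashed lines at 2-fold; points of a setting are shifted vertically so that none hides another. miR-15b lies below 0 and miR-15a and miR-497 above 0 in every setting drawn, while miR-16 lies on both sides of 0. miR-195 lies above 0 wherever it has a point, but its probe was in use through day 8-10 detection alone, so this is no check. It has no point for only probes detected on both arrays.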

How the data were processed

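Each window had 1 array of 1 colour (Cy3), hybridised with 100 ng of total RNA per the labels' protocols. Per the file headers, the authors' software was Agilent Feature Extraction (version 9.5.3.1). The deposited processed intensity of a spot is its signal less a fitted spatial background surface, per the file headers, with no normalization between arrays. Deposited flags mark spots well above background, saturated spots and outliers. The series value table matched the scanner's processed intensity for 24986 of 24986 spots (relative tolerance 1e-06). The table is linear and not centred, since its column medians are 0.646 for day 8-10 and 0.516 for day 2-4.

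Control spots and outlier spots (249 mouse spots at day 8-10, 237 at day 2-4) were left out. The 75th percentile was 95.2 at day 8-10 and 108 at day 2-4, and the floor 5.55 and 4.86 in the same order. A call needed detection on both arrays, 2-fold, and more than 2 spot SE. Normexp (limma 3.58.1, offset 50) was an alternative. The calculation was tested on simulated data. Both simulated arrays were built from the day 2-4 array, and all planted changes were larger than 2-fold. The test therefore does not cover differences as small as those of the members in the main setting. Named miRNAs were the members, same-seed and offset relatives, passenger strands, up to 3 of each cell cycle list by size of difference, and the 2 nearest in signal. miR-1224 is named for the alternative that leaves it out of the summed signal, and miR-451, miR-486 and miR-223 for their signals among the blood and serum miRNAs. Members and lists were chosen with earlier results of these data known. Sequences come from RefSeq (GRCm38.p6), where all 5 members matched.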

Additional observations from a re-analysis of the deposited data

How the results depend on the processing

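No paired analysis was possible because each window had 1 array. The signs of miR-15a, miR-15b, miR-195 and miR-497 held under the alternatives that gave a value. For miR-195 and miR-497 the shorter probe on its own is no check, since its 0.38 is set by the floors of the arrays. The sign of miR-195 is no check either, since its probe was in use through day 8-10 detection alone. miR-16 turned to -0.31 with the 75th percentile over all mouse probes, -0.069 with the median over probes detected on both arrays and -0.028 with the software gene signal. The median over members, 0.58, came to 0.071 with the 75th percentile over all mouse probes, 0.39 with no scaling, 0.31 with the median, 0.30 with quantile normalization, 0.17 with normexp and 0.36 with the software gene signal. The 0 members past 2-fold became 1 (miR-15b, lower) with the 75th percentile over all mouse probes, 1 (miR-497, higher) with the median over spots, with no floor, and with the floor set on the mean of the spots (an alternative chosen after seeing the data), and 2 at 1.5-fold. Over all miRNAs, 23 higher and 11 lower calls became 10 higher and 29 lower with the 75th percentile over all mouse probes, and 5 higher and 5 lower with normexp. With every probe required, 3 members were detected at day 8-10 and 3 at day 2-4, against 5 and 4 in the main setting. With at least 1 spot well above background, or by the software flag, 5 were detected in both windows, and with all spots well above background 5 were at day 8-10 and 3 at day 2-4. The family share of signal was 1.61%, 1.10% and 1.15% at day 8-10 without miR-1224, with the software gene signal and with normexp, and 1.53%, 0.377% and 0.354% at day 2-4 in the same order. Beyond these constructions the cause was not tested. Only probes detected on both arrays gave no value for miR-195. Signals near background limit miR-195 and miR-497.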
